A study of Homo sapiens with 6 samples.

Results

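The 34 genes described here encode the core of the cullin-RING ubiquitin ligases and the enzymes that switch them on and off. They were taken as a fixed list of cullins, adaptors, neddylation enzymes and COP9 signalosome subunits and matched by RefSeq symbol to the Entrez gene IDs of the deposited tables. All 34 were found among 40448 gene IDs. They were measured by RNA sequencing in 6 clones of KYSE150, a human cell line grown from a squamous cell carcinoma of the oesophagus. The NCCRP1 clones 1, 6 and 17 were stably transfected with a vector that expresses human NCCRP1, and the mock clones 1, 4 and 5 carried the pIRES2-EGFP vector. Each library came from 1 such clone, so a difference between clones of 1 group is part of the error, and the labels do not name the promoter that drives NCCRP1. The question put to these genes was whether forcing the expression of NCCRP1, which resembles F-box proteins, left the ligase subunits unchanged.

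Cullin-RING ligases are modular. A cullin scaffold holds a RING protein, which brings in a ubiquitin-charged conjugating enzyme, and an adaptor with an exchangeable receptor, which brings in the protein to be marked. Attachment of the ubiquitin-like protein NEDD8 to the cullin activates the ligase, the COP9 signalosome removes it, and CAND1 binds the unmodified cullin and lets receptors be exchanged. In squamous cells these ligases are known for the turnover of cell cycle inhibitors, cyclins, IkB, beta-catenin and NRF2. F-box proteins join the cullin CUL1 through the adaptor SKP1, and NCCRP1 is related to F-box proteins by its F-box-associated domain.

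Levels are log2 RPKM (reads per kilobase of transcript, scaled to the size of the library), a scale that can be compared between genes of different length, and differences are NCCRP1 minus mock clones on that scale. The targeted gene NCCRP1 was at 6.19, 8.07 and 6.71 in NCCRP1 clones 1, 6 and 17 and was listed at 0 in all 3 mock clones. Squamous markers were present in every library, with KRT5 between 9.54 and 10.86, whereas 5 of 6 fibroblast, 3 of 5 endothelial and 4 of 5 haematopoietic markers were listed at 0 throughout. Depth was estimated at 14570000 to 18070000 reads in the NCCRP1 clones and 12290000 to 15960000 reads in the mock clones, from low microRNA values near whole multiples of 1 read. A listed 0 covers every value under 1 RPKM and also genes without an estimate, since TPT1 and UBB, which every cell uses, had 0 in each library. The names of the deposited tables hold the number 15 for NCCRP1 clone 1 and mock clones 1 and 4. They hold 14 for NCCRP1 clones 6 and 17 and mock clone 5. These sets are called run 15 and run 14 here, and what the number stands for is not stated. Mock clone 5 stood apart from the other libraries, and differences without it are given for several genes. In such bulk RNA, fewer cells with a transcript and less of it per cell cannot be told apart.

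None of the 33 cullin-RING ligase and neddylation genes that could be tested passed the test for a higher or lower level in the NCCRP1 clones. DCUN1D1, which encodes a co-ligase that helps transfer NEDD8 to cullins, was listed at 0 in all 6 libraries and could not be tested. The other 33 were above 0 in every library. By limma's test with Benjamini-Hochberg adjustment over 12737 genes, 0 of the 33 were higher and 0 lower at an adjusted p under 0.05, against backgrounds of 0.0707% and 0.0314% of all genes tested. At an unadjusted p under 0.05 there was 1 of the 33, against 7.33% of all genes. The list's median difference was -0.017, with 12 means higher and 21 lower in the NCCRP1 clones, and the median over all genes tested was -0.016.

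The intervals say how large a difference these 6 clones leave room for. The 95% limma interval lay within 1 log2 unit of 0 for 33 of the 33 genes, against 90.8% of all genes tested. It lay within 0.5 log2 units of 0 for 16 of the 33, against 33.4% of all genes tested. The lowest bound was -0.78, for CUL3, and the highest was 0.86, for CDC34. Absolute differences had a median of 0.088 for the 33 genes and 0.141 for all genes tested. For 10650 tested genes the mean level lay in the range spanned by the list. Their median absolute difference was 0.134, and 93.2% of their intervals lay within 1 log2 unit. Their median level was 3.61, against 4.21 for the 33 genes, so level was not matched.

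**Figure D1:**
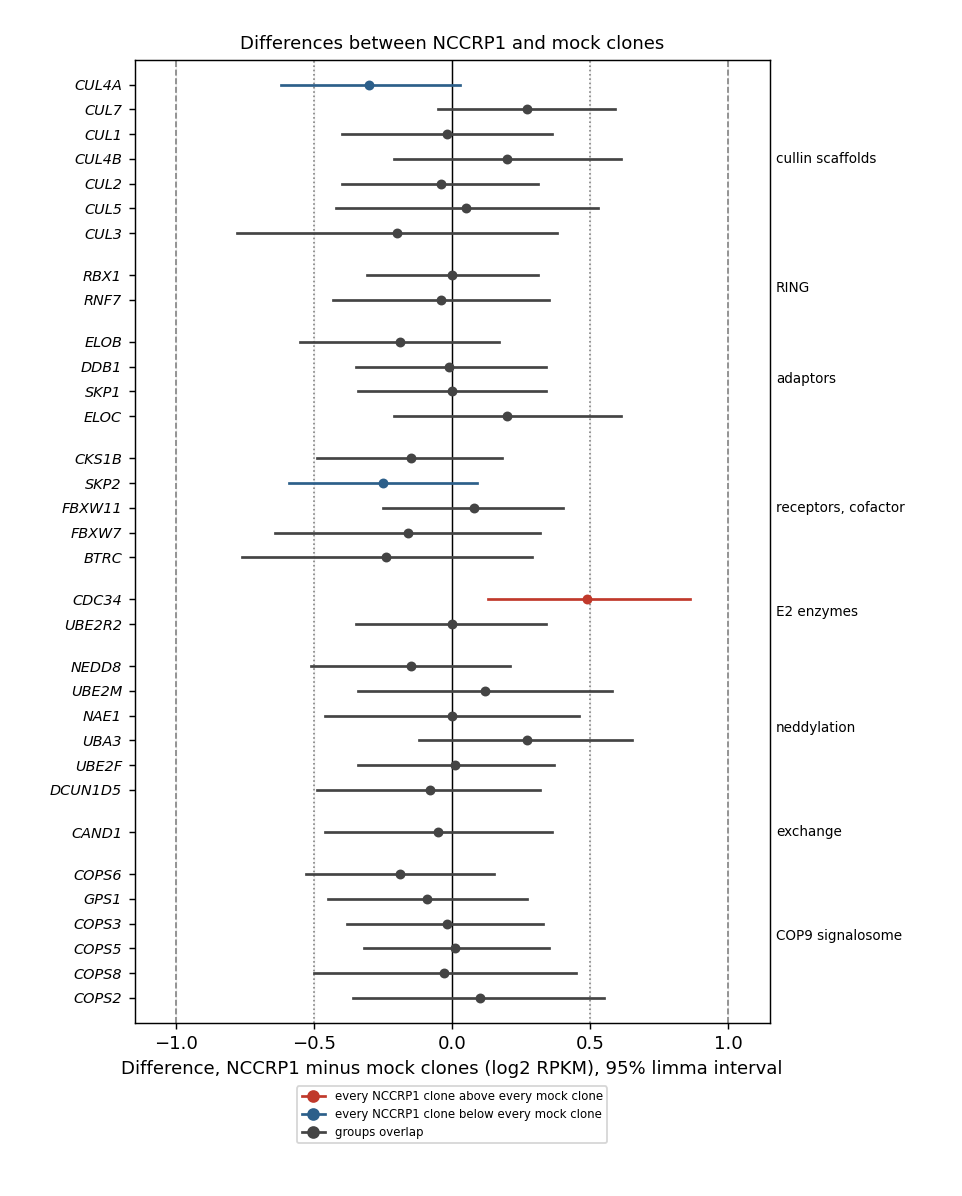
Difference between NCCRP1 and mock clones (x axis, log2 RPKM) for the 33 tested genes by role (y axis), with points for the difference and lines for the 95% limma interval; dotted and dashed lines mark 0.5 and 1 log2 unit. Every interval lies inside the dashed lines, and CDC34 has the one interval that does not reach 0.

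The cullin scaffolds covered a wide range of levels. CUL4A, a scaffold of the DDB1-linked ligases, had the highest mean of the 7 at 4.56, or 23.6 RPKM. CUL7, which works with the F-box protein FBXW8, had a mean of 4.40. CUL1, the scaffold of the SKP1 and F-box ligases, was at 3.94, 4.14 and 3.63 in NCCRP1 clones 1, 6 and 17 and at 3.8, 3.84 and 4.12 in mock clones 1, 4 and 5. The groups overlapped, with a mean of 3.90 ± 0.26 in NCCRP1 and 3.92 ± 0.17 in mock clones (SD, n = 3 each). In NCCRP1 clone 17, CUL1 deviated by -0.28 from its 6-library mean. Its 30 nearest expressed neighbours on chromosome 7 deviated there by a median of -0.36. CUL2, the scaffold used with the VHL receptor, had means of 3.23 ± 0.05 in NCCRP1 and 3.27 ± 0.20 in mock clones. CUL5, which pairs with SOCS-box receptors, and CUL3, which binds BTB-domain receptors such as KEAP1, were the lowest of all tested members at 1.83 and 1.13. CUL3 was at 0.63, 1.23 and 1.23 in NCCRP1 clones 1, 6 and 17 and at 1.09, 0.94 and 1.66 in mock clones 1, 4 and 5. These values lie close to the floor of the tables, and the interval of the CUL3 difference, from -0.78 to 0.38, was the widest of the list. The difference was -0.20, with -0.39 within run 15 and -0.43 within run 14, but 0.01 without mock clone 5 and under 0.01 in size without NCCRP1 clone 1.

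CUL4A was one of 3 members whose groups did not overlap. It was at 4.48, 4.46 and 4.31 in NCCRP1 clones 1, 6 and 17 and at 4.59, 4.62 and 4.93 in mock clones 1, 4 and 5. Every NCCRP1 clone was below every mock clone, by little against mock clones 1 and 4. The difference was -0.30 (SE 0.15, interval -0.62 to 0.03, limma adjusted p = 0.716), with -0.12 within run 15 and -0.54 within run 14. Its close paralog CUL4B, on chromosome X, was at 3.36, 3.51 and 3.67 in the NCCRP1 clones and at 3.0, 3.33 and 3.62 in the mock clones, with overlap. CUL7 was at 4.66, 4.37 and 4.57 in the NCCRP1 clones and at 4.16, 4.22 and 4.40 in the mock clones, where mock clone 5 lay above NCCRP1 clone 6. Its difference of 0.27 (interval -0.05 to 0.59, limma adjusted p = 0.753) was 0.47 within run 15 and 0.07 within run 14.

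Both RING subunits were close to level between the groups. RBX1, the RING protein of most cullins, had a mean of 4.49 ± 0.15 in NCCRP1 and 4.49 ± 0.06 in mock clones (SD, n = 3 each), with an interval of the difference from -0.31 to 0.31. RNF7, the RING protein of CUL5, had 3.10 ± 0.26 in NCCRP1 and 3.14 ± 0.13 in mock clones. RBX1 exceeded RNF7 in every library, by 1.22 to 1.61 log2 units in NCCRP1 clones and 1.22 to 1.56 in mock clones.

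The adaptors differed far more from each other than between the groups. SKP1, the adaptor of the F-box proteins, was at 3.81, 3.70 and 3.96 in NCCRP1 clones 1, 6 and 17 and at 3.68, 3.76 and 4.03 in mock clones 1, 4 and 5. The groups overlapped and the interval ran from -0.34 to 0.34, a fold between 0.788 and 1.27. DDB1, the CUL4 adaptor, averaged 5.92 ± 0.11 in NCCRP1 and 5.93 ± 0.24 in mock clones. ELOB and ELOC form the elongin dimer that links CUL2 and CUL5 to their receptors. ELOB was at 6.49, 6.22 and 6.25 in the NCCRP1 clones and at 6.77, 6.42 and 6.34 in the mock clones (difference -0.19, interval -0.55 to 0.17, limma adjusted p = 0.899). ELOC was at 2.71, 3.12 and 3.18 in the NCCRP1 clones and at 2.73, 2.67 and 3.0 in the mock clones (difference 0.20, interval -0.21 to 0.61, limma adjusted p = 0.916). Both overlapped between the groups, through NCCRP1 clone 1 in each case. Within runs 15 and 14 the ELOB difference was -0.11 in each, and the ELOC difference was 0.01 and 0.15. With 1 clone left out, the ELOB difference lay between -0.28 and -0.06 (-0.06 without mock clone 1) and the ELOC difference between 0.11 and 0.35 (0.11 without NCCRP1 clone 17 and 0.35 without NCCRP1 clone 1).

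Among the receptors, SKP2 had groups that did not overlap. SKP2 is the F-box protein that directs degradation of the cell cycle inhibitor p27, with CKS1B as its cofactor. It was at 4.34, 4.69 and 4.80 in NCCRP1 clones 1, 6 and 17 and at 4.87, 4.82 and 4.90 in mock clones 1, 4 and 5. The mock clones lay within a narrow band, and NCCRP1 clone 1 lay lowest. The difference was -0.25 (SE 0.15, interval -0.59 to 0.09, limma adjusted p = 0.814), with -0.50 within run 15 and -0.15 within run 14, and it was -0.11 without NCCRP1 clone 1. CKS1B had the same low library, at 5.40 in NCCRP1 clone 1 against 5.74 and 5.81 in clones 6 and 17, and 5.72 to 5.85 in the mock clones.

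The other 3 receptors overlapped between the groups. BTRC and FBXW11 are the paired beta-TrCP receptors for IkB and beta-catenin. FBXW11 averaged 4.25 ± 0.08 in NCCRP1 and 4.18 ± 0.19 in mock clones (SD, n = 3 each). BTRC was lower in level, at 1.96, 1.45 and 2.18 in NCCRP1 clones 1, 6 and 17 and at 1.80, 2.16 and 2.34 in mock clones 1, 4 and 5. Its lowest library was NCCRP1 clone 6, in which the median deviation of its 30 nearest expressed neighbours on chromosome 10 was -0.49. The BTRC difference was -0.24 with that clone and -0.03 without it. FBXW7, the receptor for cyclin E and MYC, averaged 2.12 ± 0.08 in NCCRP1 and 2.27 ± 0.39 in mock clones, where mock clone 5 stood apart at 2.71. In mock clone 5 the median deviation of its 30 nearest expressed neighbours on chromosome 4 was 0.60, beside 0.52 for FBXW7 itself. The FBXW7 difference was -0.16 with that clone and 0.06 without it.

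**Figure D2:**
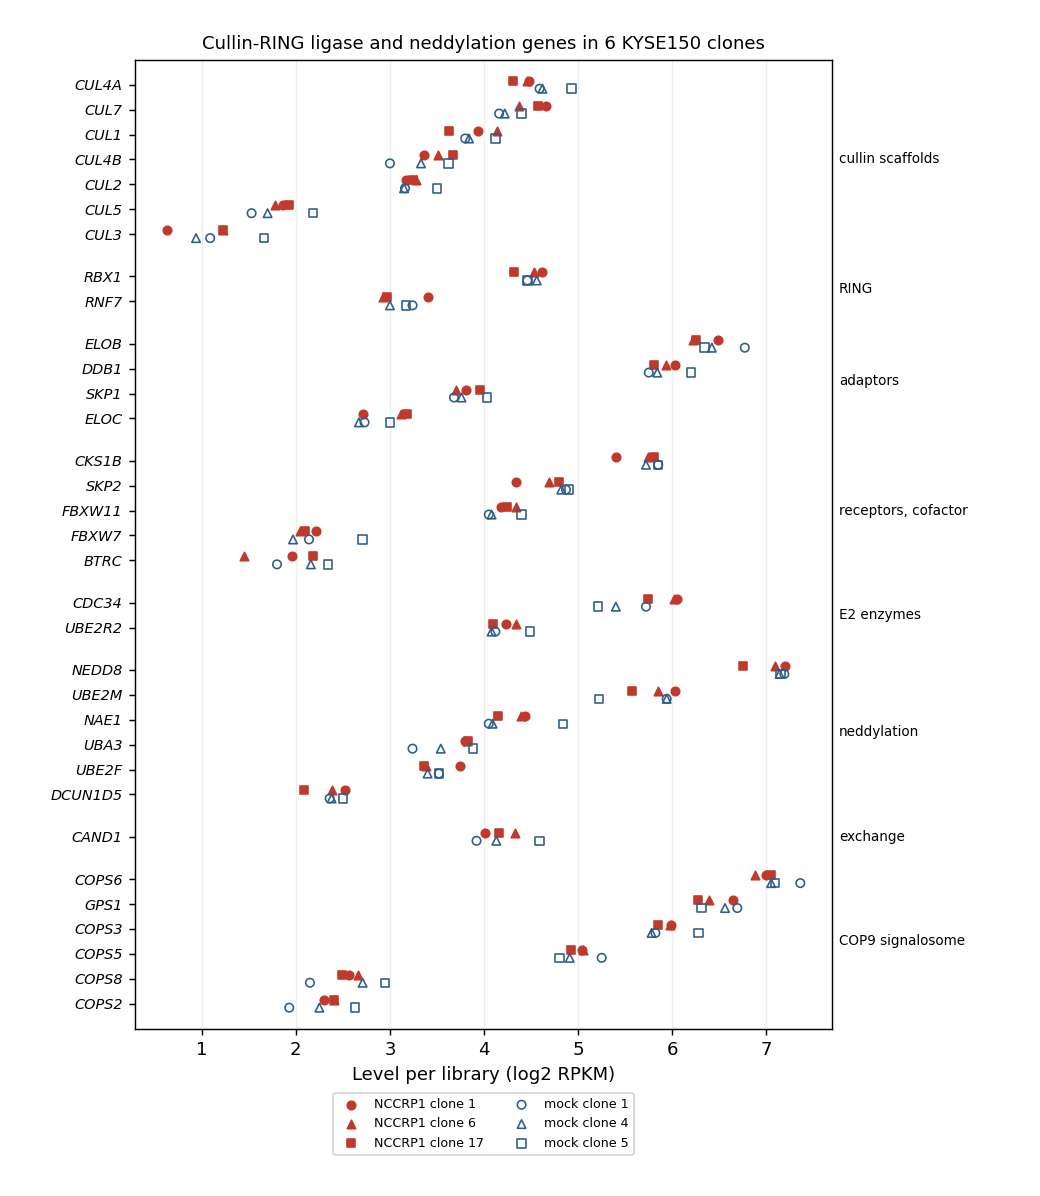
Level of each of the 33 tested genes in each library (x axis, log2 RPKM), by role (y axis), with filled red symbols for NCCRP1 and open blue symbols for mock clones and 1 symbol per clone. Genes differ from each other by nearly 6 log2 units while the 6 libraries of a gene lie close together, and mock clone 5, the open square, is often the rightmost.

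CDC34, a ubiquitin conjugating enzyme that builds chains on substrates of the SKP1 and CUL1 ligases, was the member with the lowest p. It was at 6.05, 6.02 and 5.74 in NCCRP1 clones 1, 6 and 17 and at 5.72, 5.40 and 5.21 in mock clones 1, 4 and 5. Every NCCRP1 clone was above every mock clone, with NCCRP1 clone 17 and mock clone 1 nearly equal. The difference was 0.49 (SE 0.17, interval 0.13 to 0.86), a fold of 1.41, at an unadjusted p of 0.0129 in the fit across all genes and a limma adjusted p of 0.467. It was 0.50 within run 15 and 0.67 within run 14. The related enzyme UBE2R2 averaged 4.22 ± 0.12 in NCCRP1 and 4.23 ± 0.23 in mock clones (SD, n = 3 each).

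CDC34, CUL4A and SKP2 were thus 3 of 33 genes with groups that did not overlap, or 9.09%, against 12.8% of all genes tested. In the upward direction it was 1 gene against a background of 5.71%, and in the downward direction 2 genes against 7.05%. An exact permutation test of 3 against 3 clones cannot give a two-sided p below 0.1. Every gene whose groups do not overlap reaches that value, so it adds nothing for these 3 genes.

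The promoters of these 3 genes are shown because they are the members whose groups separated. The 250 bases before the outermost annotated start are given on the gene's strand, from RefSeq on GRCh38.p14, a different build from the hg19 of the deposited values. Capitals mark matches to GGGCGG, the binding sequence of SP1, on either strand (CCGCCC on the other).
CDC34 (chr19:531510-531759, + strand): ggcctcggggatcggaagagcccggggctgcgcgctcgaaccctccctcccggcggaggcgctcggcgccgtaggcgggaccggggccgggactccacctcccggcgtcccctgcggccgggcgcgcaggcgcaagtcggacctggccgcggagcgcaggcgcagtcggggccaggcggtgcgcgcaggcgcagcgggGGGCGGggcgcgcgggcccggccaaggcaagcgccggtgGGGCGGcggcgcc
CUL4A (chr13:113207943-113208192, + strand): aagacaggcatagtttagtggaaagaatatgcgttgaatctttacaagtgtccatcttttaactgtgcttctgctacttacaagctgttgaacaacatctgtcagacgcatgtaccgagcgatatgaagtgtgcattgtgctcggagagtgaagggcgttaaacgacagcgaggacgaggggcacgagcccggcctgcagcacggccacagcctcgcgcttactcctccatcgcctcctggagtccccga
SKP2 (chr5:36151861-36152110, + strand): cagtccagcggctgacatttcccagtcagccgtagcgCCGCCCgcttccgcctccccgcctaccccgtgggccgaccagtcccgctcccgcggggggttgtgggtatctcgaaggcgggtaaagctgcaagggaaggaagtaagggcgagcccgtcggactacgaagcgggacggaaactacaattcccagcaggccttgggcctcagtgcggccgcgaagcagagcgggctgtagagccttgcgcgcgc
The CDC34 stretch holds 2 matches and 43 CpG dinucleotides, and its GC content of 83.2% is the highest of the list. The CUL4A stretch holds no match and is 52.4% GC, and SKP2 holds 1 match at 67.6% GC. The table lists 4 starts for CUL4A.

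Such promoters were found for 30 of the 34 genes, with CUL7, BTRC, ELOC and COPS5 unmatched. GGGCGG on either strand was present in 70.0% of the 30, against 67.4% of 9703 tested genes and 52.3% of 18351 genes with a promoter. The ETS sequence CCGGAAG on either strand was in 4 of the 30 (13.3%, against 16.7% of tested genes and 11% of all). CCAAT on either strand was in 9 of the 30, against 35.8% of tested genes and 34.2% of all. TATAAA on either strand was in 1, that of SKP1 (3.33%, against 5.4% of tested genes and 9.61% of all). The E2F sequence TTNGCGC was in 0 of the 30 on either strand, against 11.1% of tested genes and 8.16% of all. The palindromic NRF1 motif, with AT at its centre, was in 0 of the 30, against 2.08% of tested genes and 1.4% of all. The E2F and NRF1 motifs can overlap in their GCGC letters, and each motif was searched on its own. The list's promoters had a median GC content of 64.4%, and those of tested genes 64.8%.

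CDC34 and CUL4A lie in stretches of the genome whose other genes mostly differed in the same direction. CDC34 lies near the start of chromosome 19. Of its 30 nearest expressed protein-coding neighbours, from PLPP2 to PCSK4, 29 had a higher mean in NCCRP1 clones and 22 had groups that did not overlap. The neighbours' median deviation was 0.30, 0.23 and 0.26 in NCCRP1 clones 1, 6 and 17 and -0.13, -0.15 and -0.55 in mock clones 1, 4 and 5, a difference of 0.54. CDC34's own difference of 0.49 became -0.04 once this was subtracted in each library (limma adjusted p = 0.973).

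CUL4A lies near the end of chromosome 13. Of its 30 neighbours, from TMTC4 to CHAMP1, 27 had a lower mean in NCCRP1 clones and 26 did not overlap between the groups. Their median deviation was -0.26, -0.24 and -0.09 in NCCRP1 clones 1, 6 and 17 and 0.17, 0.22 and 0.23 in mock clones 1, 4 and 5, a difference of -0.40. With it subtracted, CUL4A's difference was 0.11 (limma adjusted p = 0.914), against -0.30 without the subtraction. For SKP2 on chromosome 5 the neighbours' difference was -0.12, with 20 of 30 lower. Their median deviation was -0.28, 0.09 and 0.03 in NCCRP1 clones 1, 6 and 17 and -0.07, 0.03 and 0.25 in mock clones 1, 4 and 5. With it subtracted, SKP2's difference was -0.13 (limma adjusted p = 0.879), against -0.25 without the subtraction. The SKP2 difference kept its sign under every setting compared.

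NAE1 showed the opposite arrangement. It encodes the regulatory subunit of the NEDD8-activating enzyme and lies on chromosome 16. Of its 30 neighbours 27 had a lower mean in NCCRP1 clones, but only 8 had groups that did not overlap. Their median deviation was -0.07, -0.0 and -0.42 in NCCRP1 clones 1, 6 and 17. In mock clones 1, 4 and 5 it was 0.23, 0.12 and 0.25, a group difference of -0.36. NAE1 itself was at 4.43, 4.39 and 4.15 in NCCRP1 clones 1, 6 and 17 and at 4.05, 4.09 and 4.84 in mock clones 1, 4 and 5. Its groups overlapped and its difference was under 0.01 in size, with 0.37 within run 15 and -0.57 within run 14. With the neighbours' shift subtracted the difference was 0.36 (unadjusted p of 0.0876 in the fit across all genes, limma adjusted p = 0.697).

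**Figure D3:**
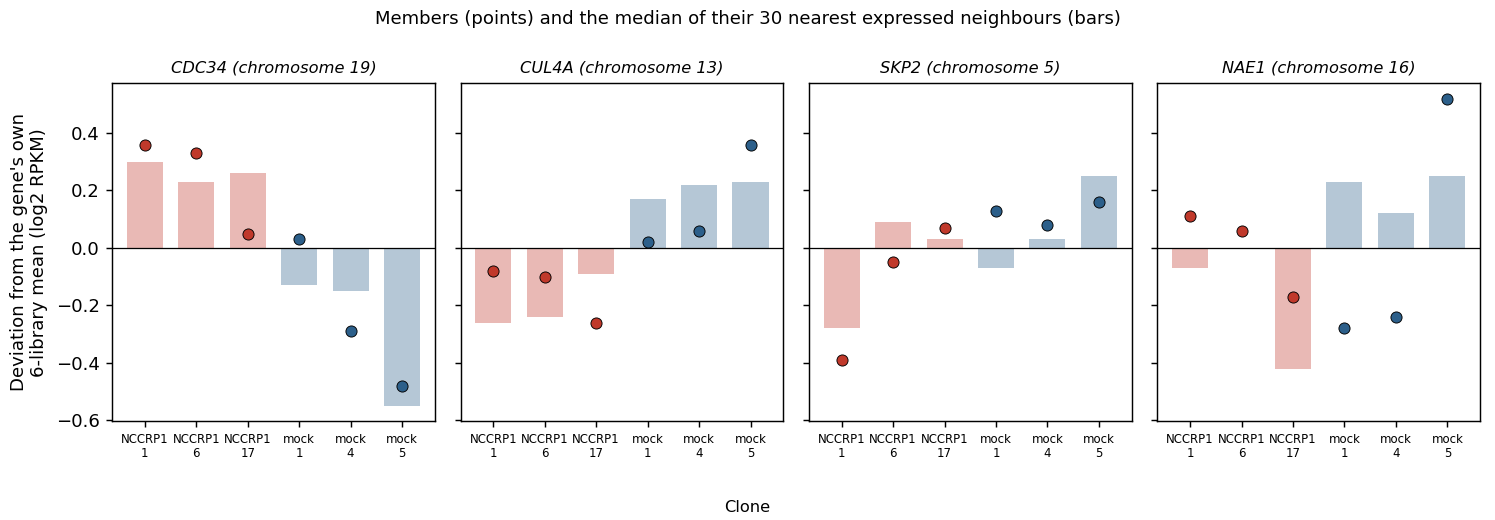
Deviation of 4 genes from their own 6-library mean in each clone (points, y axis in log2 RPKM) and the median deviation of their 30 nearest expressed neighbours (bars), with NCCRP1 clones in red and mock clones in blue. For CDC34 the NCCRP1 bars are at 0.23 to 0.30 and the mock bars at -0.55 to -0.13, and for CUL4A the signs are turned; for NAE1 the points do not follow the bars in mock clones 1 and 4.

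The genes of the NEDD8 cascade included the most abundant member of the list. NEDD8, the modifier, was at 7.20, 7.09 and 6.75 in NCCRP1 clones 1, 6 and 17 and at 7.19, 7.14 and 7.15 in mock clones 1, 4 and 5. NCCRP1 clone 17 was the low library, and the interval of the difference ran from -0.51 to 0.21. UBA3, the catalytic partner of NAE1, was at 3.8, 3.82 and 3.83 in the NCCRP1 clones and at 3.24, 3.54 and 3.88 in the mock clones. The NCCRP1 clones were nearly equal, while mock clones 1 and 4 lay below them and mock clone 5 slightly above. The difference of 0.27 (interval -0.12 to 0.65) had a limma adjusted p of 0.845. It was 0.41 within run 15 and -0.05 within run 14.

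Conjugation of NEDD8 runs through UBE2M, which works with RBX1, and UBE2F, which works with RNF7. UBE2M was at 6.03, 5.85 and 5.57 in NCCRP1 clones 1, 6 and 17 and at 5.94, 5.94 and 5.22 in mock clones 1, 4 and 5, with overlap. UBE2F averaged 3.50 ± 0.21 in NCCRP1 and 3.48 ± 0.07 in mock clones (SD, n = 3 each). DCUN1D5, a relative of DCUN1D1, averaged 2.33 ± 0.22 in NCCRP1 and 2.42 ± 0.08 in mock clones. CAND1 averaged 4.16 ± 0.16 in NCCRP1 and 4.21 ± 0.34 in mock clones, with the interval of its difference from -0.46 to 0.36. The values of UBE2M, SKP1, NEDD8 and UBE2F are uncertain because a near copy or read-through is listed beside the gene and could share its reads. UBE2MP1, a UBE2M pseudogene, was listed at 6.14 to 6.69, above UBE2M, and SKP1P2 at 2.50 to 3.39. The read-throughs NEDD8-MDP1 and UBE2F-SCLY lay at 3.21 to 3.85 and 2.27 to 2.66. The other members were not checked for near copies or read-throughs.

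The subunits of the COP9 signalosome, which act as 1 complex, spanned nearly 5 log2 units of listed level. The part of base composition or read assignment in that spread was not tested. COPS6 averaged 7.07 over the 6 libraries and GPS1 (subunit 1) 6.48. COPS3 averaged 5.95 and COPS5, the subunit that cleaves NEDD8 from cullins, 4.99. COPS8 and COPS2 were far lower, at 2.59 and 2.32. COPS5 was at 5.04, 5.05 and 4.92 in NCCRP1 clones 1, 6 and 17 and at 5.25, 4.91 and 4.80 in mock clones 1, 4 and 5, with overlap and an interval from -0.32 to 0.35. COPS6 had the lowest p of these 6 subunits, at 7.0, 6.88 and 7.05 in the NCCRP1 clones and 7.36, 7.05 and 7.09 in the mock clones (difference -0.19, interval -0.53 to 0.15, limma adjusted p = 0.892). It was -0.21 within run 15, -0.13 within run 14 and -0.09 without mock clone 1. Its groups met at the lowest mock and the highest NCCRP1 value and were not counted as separate. The differences of the 6 subunits ran from -0.19 to 0.10, and the outermost interval bounds of the other 4 were -0.50, for COPS8, and 0.55, for COPS2.

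The balance between related subunits was read within each library, as a description with no test. CUL4A exceeded CUL4B by 1.12, 0.95 and 0.64 log2 units in NCCRP1 clones 1, 6 and 17 and by 1.59, 1.29 and 1.31 in mock clones 1, 4 and 5. The groups did not overlap, and the mean ratio was 1.87-fold in NCCRP1 and 2.63-fold in mock clones. CDC34 exceeded UBE2R2 by 1.82, 1.67 and 1.64 in the NCCRP1 clones and by 1.60, 1.32 and 0.73 in the mock clones, again without overlap, though NCCRP1 clone 17 and mock clone 1 were 0.04 apart. These are the pairs that hold the genes from the shifted stretches of chromosomes 13 and 19. UBE2M over UBE2F (2.21 to 2.48 in NCCRP1, 1.70 to 2.54 in mock clones), ELOB over ELOC (3.06 to 3.77 in NCCRP1, 3.33 to 4.04 in mock clones) and BTRC over FBXW11 (-2.88 to -2.06 in NCCRP1, -2.25 to -1.92 in mock clones) overlapped, as did RBX1 over RNF7.

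**Figure D4:**
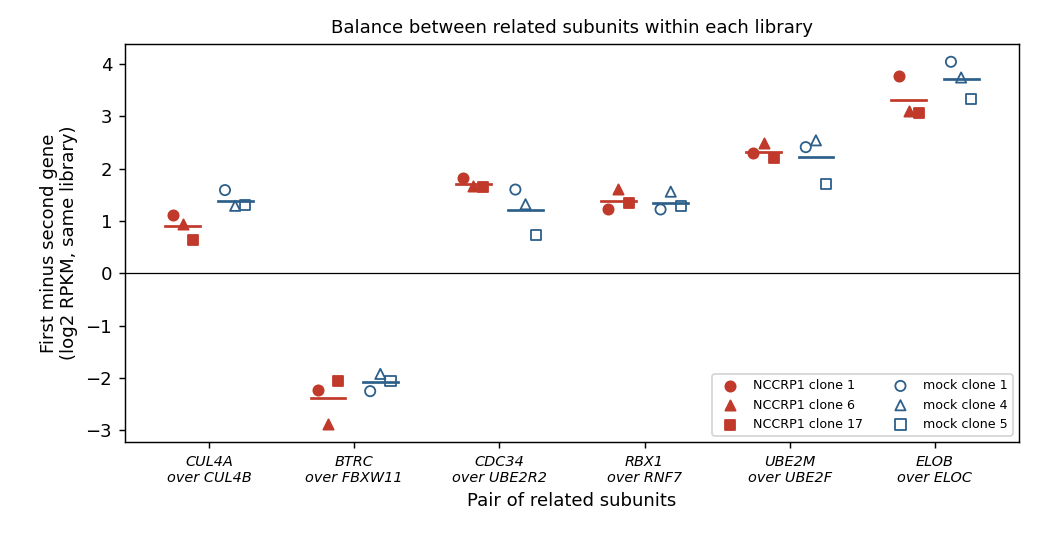
Difference in level between 2 related genes within each library (y axis, log2 RPKM, first minus second), for 6 pairs (x axis), with filled red symbols for NCCRP1 clones, open blue symbols for mock clones and lines for group means. CUL4A over CUL4B and CDC34 over UBE2R2 separate the groups, and the other 4 pairs overlap.

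The library that stood apart for these genes was mock clone 5. It gave the highest value of the 6 libraries for 17 of the 33 genes, while it did so for 29.7% of the genes above 0 in every library. The median deviation of the 33 genes from their own means was 0.03, 0.03 and -0.08 in NCCRP1 clones 1, 6 and 17 and -0.09, -0.08 and 0.19 in mock clones 1, 4 and 5. Without mock clone 5 the list's median difference was 0.071, against -0.017 with it, and it also changed sign without NCCRP1 clone 17, to 0.026. Without mock clone 5 the difference was 0.38 for CDC34, -0.19 for CUL4A, -0.23 for SKP2, 0.35 for CUL7, 0.43 for UBA3 and 0.26 for NAE1. The lowest of their limma adjusted p-values was then 0.405, for UBA3. Within run 15 the list's median difference was 0.114, and within run 14, where mock clone 5 is the sole mock clone, it was -0.223. The sign was the same in both runs for 13 of the 33 genes, or 39.4%, against 51.1% of all genes tested.

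The correlation of deviations with base composition was largest in size in mock clone 5, and it was near 0 in some of the other libraries. Across the 33 genes the correlation of the deviation with GC content of the longest transcript was -0.70 in mock clone 5. It was 0.48, -0.01 and -0.18 in NCCRP1 clones 1, 6 and 17 and 0.48 and 0.09 in mock clones 1 and 4. Over 11185 tested genes with a mean level of at least 1 it was 0.08, -0.18 and 0.01 in NCCRP1 clones 1, 6 and 17 and 0.45, 0.35 and -0.52 in mock clones 1, 4 and 5. The genes of a library share its depth and preparation, so these are descriptions, and the part of GC content in the differences was not tested beyond the removal of its trend. UBE2M and CDC34, with the highest GC contents of the list at 65.6% and 65.9%, had their lowest values in mock clone 5. With the GC trend of each library removed, CDC34 had a limma adjusted p of 0.265 and again 0 of the 33 genes passed.

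**Figure D5:**
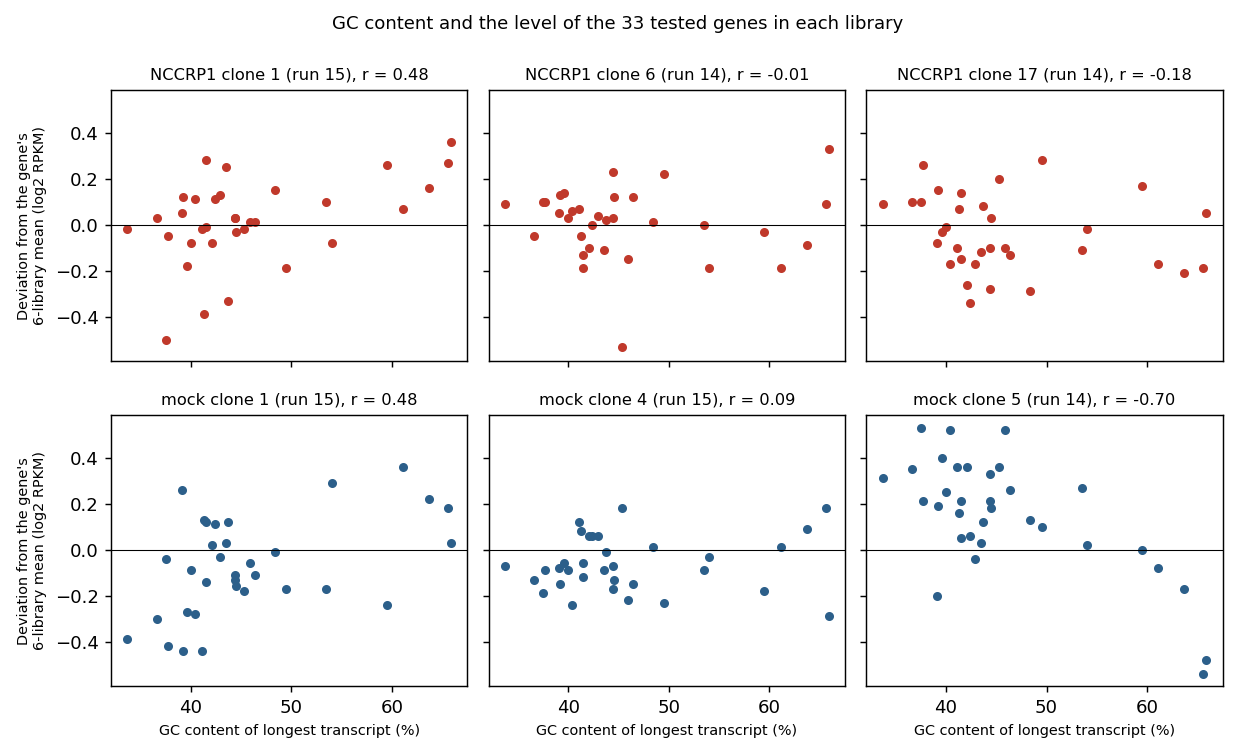
Deviation of each of the 33 tested genes from its own 6-library mean (y axis, log2 RPKM) against GC content of its longest transcript (x axis, percent), 1 panel per clone, with NCCRP1 clones in the upper row and mock clones in the lower. The points slope down in mock clone 5 (r = -0.70) and most lie above 0 there.

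Other genes of the same pathway were taken as lists, and none but the transfected gene passed limma's test. The lists were chosen with earlier results of these data known, so their shares beside those of all genes are descriptions. Of 18 further neddylation, signalosome and conjugating genes 16 were tested, 8 had a higher and 8 a lower mean in NCCRP1 clones, and 0 passed limma's test, with 1 at an unadjusted p under 0.05 (6.25%, against 7.33% of all genes tested). Their median difference was 0.003, and 4 of the 16 had groups that did not overlap (25%, against 12.8% of all genes tested). The lowest p belonged to DCUN1D2, another DCUN1D1 relative, at 2.52, 2.38 and 2.69 in NCCRP1 clones 1, 6 and 17 and at 2.79, 3.11 and 3.13 in mock clones 1, 4 and 5. Its difference of -0.48 (limma adjusted p = 0.538) stood beside a neighbour difference of -0.40, on the same stretch of chromosome 13 as CUL4A. CUL9, an atypical cullin, averaged 3.85 ± 0.13 in NCCRP1 and 3.55 ± 0.14 in mock clones (SD, n = 3 each). COPS7A, a further signalosome subunit, averaged 6.49 ± 0.17 in NCCRP1 and 6.22 ± 0.24 in mock clones.

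Of 53 further substrate receptors 51 were tested, with 24 higher and 27 lower means, a median difference of -0.004, and 0 passing limma's test (2 at an unadjusted p under 0.05, or 3.92%, against 7.33% of all genes tested). The groups of 4 of the 51 did not overlap (7.84%, against 12.8%). SOCS3, a cytokine-induced receptor of the CUL5 ligases, was at 4.27, 4.94 and 5.01 in NCCRP1 clones 1, 6 and 17 and at 4.19, 4.59 and 3.85 in mock clones 1, 4 and 5. The groups overlapped, and its difference was -0.12 within run 15 and 1.13 within run 14, where mock clone 5 is the sole mock clone. Without mock clone 5 it was 0.35, against 0.53 with it. FBXL12 averaged 3.94 ± 0.17 in NCCRP1 and 4.25 ± 0.08 in mock clones.

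Of the 6 genes with an F-box-associated domain, NCCRP1 was forced high by the transfection and entered the test through that group alone, so that its result checks the labels and is no finding. The other 5 did not pass. FBXO27, which recognises glycoproteins, had the next lowest p, at 5.32 ± 0.15 in NCCRP1 and 5.57 ± 0.14 in mock clones (SD, n = 3 each, limma adjusted p = 0.777). FBXO2, FBXO6, FBXO17 and FBXO44 had differences from 0.07 to 0.18, at limma adjusted p from 0.904 to 0.989, and those of FBXO2 and FBXO17 were -0.11 and -0.10 without mock clone 5.

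Of 24 transcripts whose proteins cullin ligases degrade, 23 were tested, with 9 higher and 14 lower means, a median difference of -0.053, and 0 passing limma's test (5 at an unadjusted p under 0.05, or 21.7%, against 7.33% of all genes tested). The groups of 4 of the 23 did not overlap (17.4%, against 12.8%). Differences ran from -0.68 to 0.79, and the 3 genes given next are those with the lowest p. The list was chosen with earlier results of these data known, so its shares are descriptions and no evidence that its genes respond. The values are transcript levels and say nothing of the proteins' stability. NFKBIA, which encodes the IkB protein recognised by the beta-TrCP receptors and is itself induced by NF-kB, was at 6.13, 6.69 and 6.07 in NCCRP1 clones 1, 6 and 17 and at 5.24, 5.93 and 5.35 in mock clones 1, 4 and 5. Every NCCRP1 clone was above every mock clone (difference 0.79, interval 0.31 to 1.27, limma adjusted p = 0.341), and the difference was 0.54 within run 15 and 1.03 within run 14. CCND1, encoding cyclin D1, averaged 5.52 ± 0.41 in NCCRP1 and 4.93 ± 0.05 in mock clones, and IRS1, the insulin receptor substrate, 3.36 ± 0.13 in NCCRP1 and 2.94 ± 0.06 in mock clones (limma adjusted p of 0.451 and 0.543). Their differences within runs 15 and 14 were 0.19 and 0.78 for CCND1 and 0.27 and 0.53 for IRS1.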

How the data were processed

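RNA from 6 KYSE150 clones was DNase-treated, had its ribosomal RNA removed and went into Ion Total RNA-Seq libraries, per the labels' protocols. The authors' tables give 40448 Entrez gene IDs with a column headed RPKM, per the file headers. What the authors deposited was log2 RPKM, since 2 to the power of the value, times transcript length in kilobases and summed, came to 1133308 to 1150118 per library. The submitters' processing notes name hg19 and bedtools 2.25.0, with no role; the aligner, and whether reads were counted by strand, were not given in the sources used here.

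RefSeq symbols were matched for 37997 IDs. Group differences came from limma 3.58.1 under R 4.3.3 (trend and robust options, group as the sole term, two-sided), fitted without further scaling to 12737 genes above 0 in at least 3 libraries, with Benjamini-Hochberg adjustment at 0.05. Neighbours were 30 of 8860 protein-coding genes with a mean no lower than 2 that exceeded 0 in all libraries. They were nearest by order of start position, equally many on each side except near chromosome ends, and not by distance in bases. GC content came from the longest GENCODE 29 transcript and was available for 97.5% of tested genes. The depth was the read total, between 10000000 and 20000000, at which the largest share of microRNA values under 8 reads lay within 0.005 of a whole number (23.4% to 33.1% per library), so multiples of it are possible. Too few were whole to recover counts, so no count model was run and no counting error is given.

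Full values went to members that passed, members whose groups did not overlap and the 8 with the lowest p, and from each other list to up to 3 genes with the lowest p; 1 such gene is not reported here. The members and lists were chosen with earlier results of these data known. The clones are separate samples per the labels. The limma p-values set the group difference against the spread between clones within groups in these 6 libraries, moderated over all genes tested. Alternatives changed the pseudocount, filter, scaling, moderation, run term, neighbours, GC trend and the clones included.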

Additional observations from a re-analysis of the deposited data

How the results depend on the processing

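Under 17 other settings, 0 of the 33 genes passed limma's test in either direction, with lowest adjusted p between 0.265 and 0.851. The 95% intervals of all 33 lay within 1 log2 unit of 0 except without mock clone 1 or mock clone 4, where 32 did. Within 0.5 log2 units lay 16 as reported, 25 with the neighbours' shift subtracted, and 7 to 17 with 1 clone left out (7 without mock clone 4, 9 without NCCRP1 clone 6). The list's median difference ran from -0.078 to 0.071 with 1 clone left out, and from -0.057 to -0.003 under the other settings, each within 1 SD of the list's median between clones (0.122, pooled within groups) of the reported value. Of the 8 genes with full statistics, 2 changed sign, both with the neighbours' shift subtracted: CDC34 to -0.04 and CUL4A to 0.11. Among all 33 genes, 14 changed sign without mock clone 5. Without NCCRP1 clone 17 it was 8, as it was with the neighbours' shift subtracted, and under each remaining setting at most 5. CDC34 ran from 0.38 to 0.63 with 1 clone left out, and CUL4A from -0.36 to -0.19. At an unadjusted p under 0.05, CDC34 was joined by CUL4A and SKP2 with the run as a term, by CUL4A and UBA3 with the GC trend removed, and by CUL7 and UBA3 without mock clone 5; with the neighbours' shift subtracted there were 0. NAE1 moved by more than its spread between clones, to 0.36, with the neighbours' shift subtracted. The removal of GC trends was chosen after seeing the data. No paired analysis was possible because the labels name no pairs of NCCRP1 and mock clones, and the shared clone number 1 does not make a pair. Values near 1 RPKM, as for CUL3, are limited by the floor of the tables.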
